A study of Homo sapiens with 11 samples.

Results

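The HIST1 cluster on chromosome 6 is the largest group of histone genes in the human genome. The members described here are the 56 protein-coding genes of chromosome 6 whose names begin with HIST1H in the RNA-seq annotation, out of 58243 genes in the RNA-seq data and 66 genes of any type or chromosome with such a name. They comprised 6 linker histone H1 genes, 12 H2A genes, 15 H2B genes, 11 H3 genes and 12 H4 genes. HIST1H3D counted as a member under 2 gene models, the second of which (ENSG00000282988) overlaps HIST1H2AD. Their RNA was measured in 2 RNA-seq libraries of HK2 cells, a line of immortalised human proximal tubule epithelium. Peaks of H3K4me3, H3K27ac and H3K27me3 came from ChIP-seq of the same line with 2 replicates of each mark. All samples were grown in DMEM-F12 with 10% FBS, antibiotics and 0.05% DMSO, and no treatment was compared. The samples are not stated to come from separate cultures, so the spread between them may be technical. Samples of input DNA and of HiChIP, which maps chromatin contacts, were not analysed here.

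Replication-dependent histone genes supply the core histones H2A, H2B, H3 and H4 and the linker histone H1 that package new DNA in S phase. Most of their transcripts are unspliced and end in a conserved stem-loop in place of a poly(A) tail, and the stem-loop is bound by SLBP and cut by the U7 snRNP machinery. H3K4me3 marks promoters, H3K27ac marks active promoters and enhancers, and H3K27me3 marks regions silenced by Polycomb. Many H2A and H2B genes stand head to head and share 1 short promoter region, and a few members, among them HIST1H1T, HIST1H2AA and HIST1H2BA, are known as genes of the testis.

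The intergenic sequences of 3 head-to-head pairs are shown because they hold the highest member, a pair of intermediate level and the pair listed at an RNA level of 0 without active marks. They are the plus strand of GRCh37, from HIST1H2BK to HIST1H2AH at chr6:27114635-27114884 (250 bp), from HIST1H2BC to HIST1H2AC at chr6:26124155-26124372 (218 bp) and from HIST1H2AA to HIST1H2BA at chr6:25726791-25727004 (214 bp). In each pair the first gene lies on the minus strand and the second on the plus strand. Capitals mark TATAAA (the TATA box), CCAAT (the CCAAT box) and ATTTGCAT (the octamer) on either strand. Overlapping matches on both strands were each counted.
HIST1H2BK and HIST1H2AH: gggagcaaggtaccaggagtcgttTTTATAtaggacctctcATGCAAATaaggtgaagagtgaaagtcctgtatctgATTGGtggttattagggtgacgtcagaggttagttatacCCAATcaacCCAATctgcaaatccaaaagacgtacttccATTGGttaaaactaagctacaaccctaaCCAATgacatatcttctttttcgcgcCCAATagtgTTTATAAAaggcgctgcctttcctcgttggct
HIST1H2BC and HIST1H2AC: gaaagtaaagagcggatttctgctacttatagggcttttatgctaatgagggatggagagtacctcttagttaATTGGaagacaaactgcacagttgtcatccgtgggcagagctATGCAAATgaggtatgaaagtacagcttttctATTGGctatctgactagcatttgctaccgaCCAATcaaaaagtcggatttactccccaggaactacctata
HIST1H2AA and HIST1H2BA: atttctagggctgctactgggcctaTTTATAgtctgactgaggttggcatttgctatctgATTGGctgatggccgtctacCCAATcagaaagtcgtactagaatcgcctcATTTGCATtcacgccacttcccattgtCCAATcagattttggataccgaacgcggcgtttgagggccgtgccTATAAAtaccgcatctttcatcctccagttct
The HIST1H2BK and HIST1H2AH sequence held 3 TATAAA, 6 CCAAT and 1 ATTTGCAT match. The HIST1H2BC and HIST1H2AC sequence held 0, 3 and 1, and the sequence of HIST1H2AA and HIST1H2BA, both listed at an RNA level of 0, held 2, 3 and 1. This last pair therefore carried all 3 motifs. The sequence between HIST1H2BC and HIST1H2AC, which stops at the start sites, held no TATAAA, but the longer RefSeq windows described next held a match for both genes.

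The same motifs were searched on both strands in RefSeq promoter sequences (GRCh38.p14), from 250 bases before to 50 after a start site, for the 50 members with an entry. TATAAA was found in 68% of the members and in 14.0% of all 27305 promoters. CCAAT was found in 86% of the members and 39.7% of all promoters, with a match in every H1, H2A, H2B and H3 promoter searched but in 3 of 10 H4 promoters. ATTTGCAT was the most uneven between classes. It was present in 9 of 11 H2A promoters, 12 of 15 H2B promoters and 1 of 8 H3 promoters, in none of the H1 or H4 promoters, and in 2.19% of all promoters. The H3 match was in the second HIST1H3D model, whose annotated start site in GRCh37 is that of HIST1H2AD. Their RefSeq windows were not the same, since TATAAA was found for this model and not for HIST1H2AD. Windows of head-to-head partners overlap, so a match can be counted for both genes, and the H2A and H2B counts are not independent. Levels overlapped widely between members with and without a match. The median FPKM (fragments per kilobase of transcript, scaled to library size) was 0.191 with TATAAA and 0.139 without it, 0.195 with CCAAT (43 members) and 0.0796 without it (7 members), and 0.225 with ATTTGCAT and 0.165 without it, while both groups of each motif ran from 0 upwards.

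The stem-loop that ends histone mRNAs was searched on the coding strand of GRCh37 within 300 bases after the stop codon. Representative elements are shown with the stem-loop in capitals and 5 bases on either side. They lie in the 3' UTR, and the capitals are at chr6:27114145-27114160 (minus strand) for HIST1H2BK, chr6:27115325-27115340 (plus) for HIST1H2AH, chr6:26055972-26055987 (minus) for HIST1H1C, chr6:27798956-27798971 (minus) for HIST1H4K and chr6:25726296-25726311 (minus) for HIST1H2AA.
HIST1H2BK: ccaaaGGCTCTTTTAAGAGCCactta
HIST1H2AH: acaaaGGCTCTTTTCAGAGCCattct
HIST1H1C: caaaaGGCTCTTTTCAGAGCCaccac
HIST1H4K: caaaaGGCCCTTTTTAGGGCCcccac
HIST1H2AA: caaaaGGCTCTTTTCAGAGCCaccta
The element was found in 49 of the 50 members with an annotated stop codon, between 23 and 63 bases after it (median 36), and in 0 of 965 other protein-coding genes of chromosome 6. The member without one was the second HIST1H3D model. AATAAA, the canonical poly(A) signal, occurred on the coding strand within the same 300 bases in 7 of the 50 members (14%) and in 40.2% of the other chromosome 6 genes. It lay 56 bases after the stop codon in HIST1H1C and 65 bases after it in HIST1H2BD, which ranked directly below HIST1H2BK in FPKM. The others were HIST1H4K, HIST1H4J, HIST1H2AM, HIST1H4C and HIST1H2AL, the last at 0.123 and 0 FPKM in libraries 1 and 2. HIST1H2AC, HIST1H2BC and HIST1H2BJ, also among the higher members, had none, so the signal did not follow the order of FPKM. Within 300 bases HIST1H2BK had no AATAAA, so the highest member was not among the 7. Other signals and more distant sites were not searched, so the search cannot tell whether its RNA has a poly(A) tail.

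The deposited RNA-seq values are FPKM per transcript, summed here per gene. The members' summed exons held a median of 868 aligned bases in library 1 and 294 in library 2, where an FPKM of 1 over 500 bases equals about 2837 and 2760 aligned bases. Low values thus rest on few reads. The cell type markers were mixed. PAX8, a renal epithelial transcription factor, had an FPKM of 102 and GGT1, a brush border enzyme, 61.1, but only 3 of 10 proximal tubule markers reached an FPKM of 1 in both libraries, and LRP2 and HNF4A, both defining markers, were listed at 0. Epithelial markers reached it in 4 of 5 cases, while none of 4 glomerulus and none of 2 blood markers did.

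Few HIST1 genes reached an appreciable FPKM. Only 5 of the 56 members (8.93%) reached an FPKM of 1 in both libraries, against 58.8% of 19645 protein-coding genes. The 5 were HIST1H2BK, HIST1H1C, HIST1H2BD, HIST1H2AC and HIST1H4K. With TPM (each library's transcript levels scaled to a fixed total) and the same threshold the count was 10, against 63.8% of all genes. At a threshold of 0.1 in both libraries there were 27 members, against 68.8% of all genes. The members' median FPKM was 0.269 in library 1 and 0.108 in library 2, and that of all protein-coding genes was 3.24 and 3.36. On the log2(FPKM + 1) scale the members' median of mean levels was lower by 1.85. In all, 10 members were listed at 0 in both libraries (19.6% of all genes were). Another 12 were listed at 0 in exactly 1 library, against 1108 of the 19645 protein-coding genes. The other 34 were above 0 in both, against 14688 of the 19645.

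**Figure D1:**
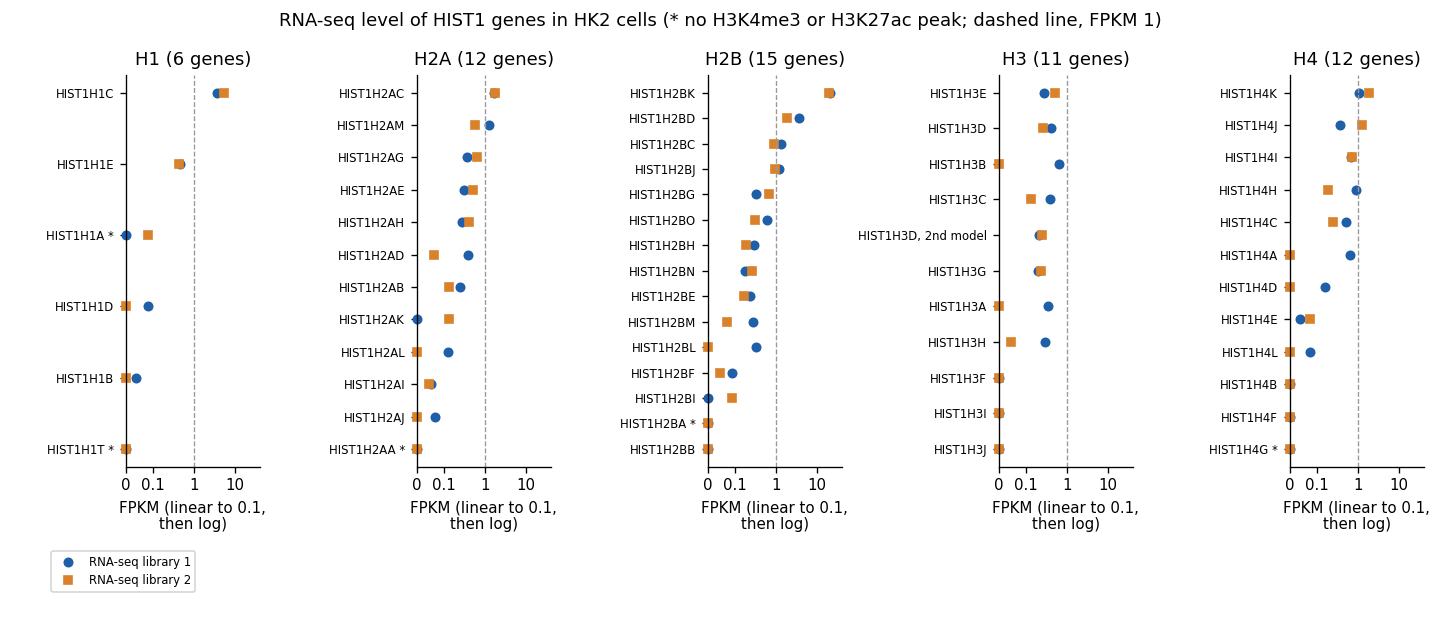
FPKM of each of the 56 HIST1 genes (x axis, linear to 0.1 and logarithmic above) in RNA-seq library 1 (circles) and library 2 (squares), by histone class and ordered by mean; asterisks mark genes with no H3K4me3 or H3K27ac peak within 1 kb. HIST1H2BK, at 20.1 and 19.3, stands apart from the other members, and most points lie left of the dashed line at an FPKM of 1.

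Among the H2B genes, HIST1H2BK (ENSG00000197903, chr6:27114140-27114634 in GRCh37, minus strand) was the highest of all members, with an FPKM of 20.1 in library 1 and 19.3 in library 2 (19.7 ± 0.573, SD, n = 2). This level exceeded 82.0% of protein-coding genes and made up 46.4% of the summed FPKM of the 56 members. HIST1H2BD had 3.65 and 1.80, HIST1H2BC 1.32 and 0.910, and HIST1H2BJ 1.21 and 0.922. Both libraries thus placed HIST1H2BK above every other member, by a margin far wider than the spread between libraries. The lowest H2B genes, HIST1H2BA and HIST1H2BB, were listed at 0 in both libraries. The 15 H2B genes together made up 64.4% of the members' FPKM in library 1 and 61.0% in library 2, but their median was 0.214, close to that of the other core classes.

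HIST1H2BK is not unique in sequence, which limits how exactly reads can be assigned to it. Of its 50-base stretches in annotated transcripts, 57.2% occur also in transcripts of another gene, most often the H2B genes H2BC12L (ENSG00000234289) and ENSG00000274559, each with 47.8% of them. These had FPKM of 0.228 and 0.702 and of 0.211 and 0.404 in libraries 1 and 2, well below HIST1H2BK. Over the 50 members with transcripts in the GRCh37 annotation, the median share was 1.16%, and 24 members shared none. The share was above 50% in 9 members, so that the levels of HIST1H4K (92.6%) and HIST1H4J (92.1%), which share sequence mainly with each other, and of HIST1H3D (96.5%), HIST1H2AD (84.0%) and HIST1H2AM (67.8%) are uncertain.

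Among the H2A genes, HIST1H2AC was highest and its libraries were close, at 1.65 and 1.77 FPKM. HIST1H2AM had 1.24 and 0.574 and HIST1H2AG 0.352 and 0.639. HIST1H2AA was the only H2A gene at 0 in both libraries. Of the 12 genes, HIST1H2AC alone reached an FPKM of 1 in both libraries.

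Of the linker histone genes, HIST1H1C (ENSG00000187837, chr6:26055968-26056698, minus strand) was the second highest member of the cluster, with 3.53 FPKM in library 1 and 5.31 in library 2 (4.42 ± 1.26, SD, n = 2). HIST1H1E followed at 0.453 and 0.429. The remaining H1 genes were near or at 0: HIST1H1A had 0 and 0.0794, HIST1H1D 0.0794 and 0, HIST1H1B 0.0388 and 0, and the testis gene HIST1H1T 0 in both libraries. HIST1H1C therefore held most of the H1 FPKM, and the class median, 0.0397, was the lowest of the 5 classes.

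The H3 genes were uniformly low, and none of 11 reached an FPKM of 1 in either library. HIST1H3E was highest, at 0.268 and 0.493, followed by HIST1H3D at 0.399 and 0.263 and HIST1H3B at 0.629 and 0. HIST1H3F, HIST1H3I and HIST1H3J were listed at 0 in both libraries. The order among the highest H3 genes differed between libraries, so these neighbours could not be told apart.

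In the H4 class HIST1H4K had 1.03 and 1.87 FPKM, HIST1H4J 0.352 and 1.22, and HIST1H4I 0.680 and 0.713. HIST1H4J was high in library 2 alone, so its place in the order was not firm. HIST1H4B, HIST1H4F and HIST1H4G were listed at 0 in both. Leaving HIST1H2BK aside, the summed mean FPKM was 6.94 for H2B, 4.96 for H1, 4.47 for H2A, 4.33 for H4 and 2.05 for H3.

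In all, 10 members had at least 1 annotated transcript of several exons, while the other 46 had 1 unspliced transcript each. In HIST1H2BD the transcript of 2 exons had 3.16 and 1.67 FPKM and the unspliced transcript 0.487 and 0.124. In HIST1H2BC the values were 1.303 and 0.904 for the transcript of 2 exons and 0.0222 and 0.00603 for the unspliced one. All 3 annotated HIST1H2AC transcripts had 2 exons. HIST1H4H showed the opposite, with 0.674 and 0.137 for the unspliced transcript and 0.1065 in library 1 as the highest value of any spliced one in either library. The unspliced transcript was also the higher in HIST1H2BE and HIST1H2BN, and spliced ones were the higher in HIST1H2BJ and HIST1H3E. How reads were divided among overlapping transcripts was set by the authors' assembler.

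Several of the better expressed members differed between libraries. Of the 7 members whose mean FPKM reached 1, HIST1H1C, HIST1H2BD and HIST1H4K differed more than 1.5-fold between libraries. Among all 11748 protein-coding genes at or above this threshold 5.93% did, but these genes were not matched to the members in level. They include 8475 genes at 5 or more in both libraries, a level that only HIST1H2BK reached among the members. The share therefore cannot show whether the members differed more than genes of similar FPKM. HIST1H1C and HIST1H4K were higher in library 2 and HIST1H2BD in library 1. Over all members, 29 were higher in library 1 and 17 in library 2, against 38.7% and 41.7% of all protein-coding genes, and most of these members rest on few aligned bases. Several noncoding RNAs without a poly(A) tail, chosen after their values were seen, had higher values in library 1. RN7SL1, the signal recognition particle RNA, had 38.0 and 10.1 FPKM and RN7SK, which inhibits P-TEFb, 11.3 and 4.45. RMRP and RPPH1, the RNA parts of RNase MRP and RNase P, had 3.30 and 0.618 and 2.31 and 0.320. RNU7-1 was near 0 in both libraries, at 0.00578 and 0.00335, and TERC, at 0 and 0.0275, was higher in library 2. The study's methods describe rRNA depletion of total RNA, while the sample labels read mRNA. The part of RNA selection in the members' levels was not tested.

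Nearly all members carried the marks of active promoters. A gene was counted as marked where a peak overlapped the 1 kb on either side of an annotated start site in both replicates. Of the 50 members joined to GRCh37 start sites by Ensembl identifier, 45 had H3K4me3, against 70.3% of protein-coding genes, and 45 had H3K27ac, against 55%. The same 45 had both marks, as did 53.5% of all genes. None had H3K27me3 in both replicates, against 11.4%. Counting a peak in either replicate gave 45, 45 and 1 members for H3K4me3, H3K27ac and H3K27me3, against 79.6%, 67.6% and 16.2% of all genes. The remaining 6 members (HIST1H4B, HIST1H3B, HIST1H3C, HIST1H2BF, HIST1H2BG and HIST1H4F) were placed by an exact match of their RefSeq promoter sequence to chromosome 6, and all 6 had both active marks, which made 51 of 56.

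The 5 members with neither mark in any replicate were HIST1H2AA, HIST1H2BA, HIST1H1A, HIST1H1T and HIST1H4G, and 18.7% of all genes had neither. Their highest FPKM was 0.0794, for HIST1H1A in library 2, and the other 4 were listed at 0 in both libraries. HIST1H1A lay 2193 and 2658 bp from the nearest H3K4me3 peak in replicates 1 and 2, and HIST1H4G 2349 and 2753 bp. HIST1H1T was 3319 and 3857 bp away, while its nearest H3K27ac peak was at 1353 and 3380 bp. HIST1H2AA, in contrast, was 74211 and 13319 bp from H3K4me3.

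**Figure D2:**
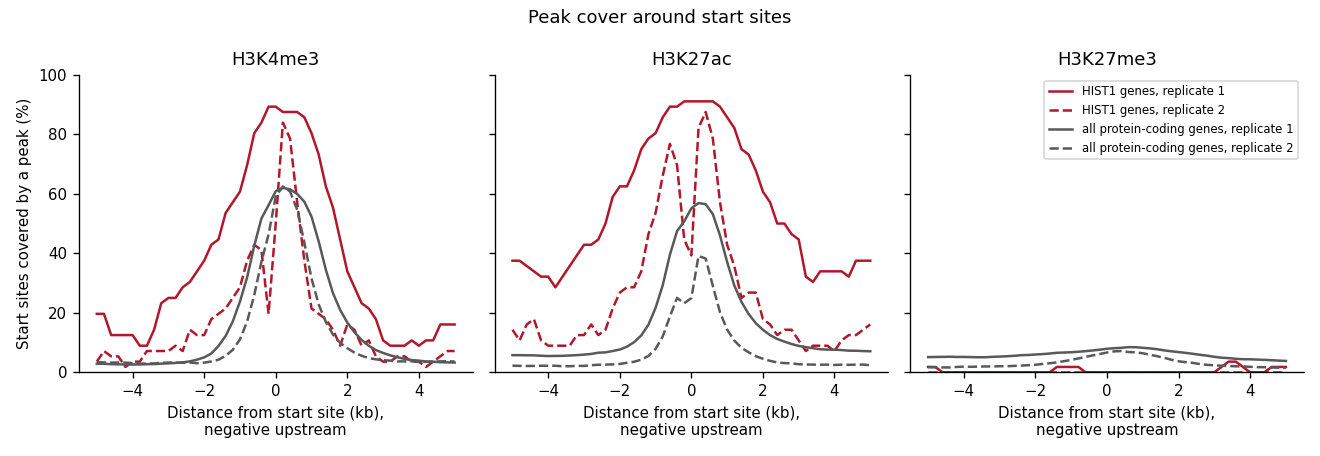
Share of start sites covered by a peak (y axis, %) by distance from the start site (x axis, kb, negative upstream) for the 56 HIST1 genes (red) and all 19645 protein-coding genes (grey), replicate 1 solid and replicate 2 dashed. HIST1 genes lie above all genes near the start site for H3K4me3 and H3K27ac in replicate 1, dip at and just upstream of it in replicate 2, and lie at or near 0 for H3K27me3.

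The replicates differed in how peaks were drawn at these promoters. The paper reports a larger fraction of mapped reads inside peaks for its first than for its second replicate of H3K27ac and H3K4me3. The part of this difference in the peak shapes was not tested. In replicate 1, H3K4me3 peaks covered the start site itself in 50 of 56 members and the base 200 bp upstream in 50. In replicate 2 they covered the start site in 28, the base 200 bp upstream in 11 (19.6%, against 46.3% of all genes) and the base 200 bp downstream in 47 (83.9%, against 62.5%). H3K27ac peaks of replicate 2 covered the start site in 22 members (39.3%, against 24.9% of all genes), the base 200 bp upstream in 25 (44.6%, against 23.2%) and the base 200 bp downstream in 46 (82.1%, against 39.1%). At and just upstream of the start site the members thus lay below all genes for H3K4me3 but above them for H3K27ac, whose cover over all genes was also higher downstream. Between HIST1H2BK and HIST1H2AH, for example, replicate 1 had 1 H3K4me3 peak of 3319 bp (chr6:27112619-27115937), while replicate 2 had peaks of 641 and 447 bp (chr6:27114014-27114654 and chr6:27114980-27115426) that flanked most of the intergenic sequence printed above.

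Peaks at the members were wide in replicate 1 and often shared. The 31 H3K4me3 peaks of replicate 1 had a median width of 2743 bp, against 2073 bp for peaks at all protein-coding genes, and the 50 of replicate 2 a median of 713 bp, against 1072 bp. The 30 H3K27ac peaks of replicate 1 had a median of 4322 bp, against 1854 bp, and the 53 of replicate 2 a median of 1036 bp, against 754 bp. H3K27ac peaks at the members were thus wider than the genome-wide median in both replicates, and H3K4me3 peaks in replicate 1 only. Several members shared 1 peak in 17 H3K4me3 and 17 H3K27ac peaks of replicate 1 and in 23 and 24 of replicate 2, so the members' peak calls are not independent. The widest, an H3K27ac peak of 10880 bp in replicate 1 (chr6:26025241-26036120), reached HIST1H2AB, HIST1H3B and HIST1H4B. The widest H3K4me3 peak, of 6404 bp (chr6:26121168-26127571), covered the HIST1H2BC and HIST1H2AC pair.

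H3K27me3 peaks were nearly absent. For this mark the paper reports a small fraction of mapped reads inside peaks in both replicates. A single peak of 689 bp in replicate 1 (chr6:27836134-27836822), 768 bp from the start of HIST1H1B, was the only one within 1 kb of a member, and replicate 2 had none. HIST1H1B also had H3K4me3 and H3K27ac in both replicates, with an FPKM of 0.0388 and 0. The median distance from a member's start site to the nearest H3K27me3 peak was 238518 bp in replicate 1 and 238426 bp in replicate 2, against 57220 and 76692 bp over all protein-coding genes. These medians reflect the 33 neighbouring members from HIST1H1A to HIST1H4H, which lay 201695 to 372830 bp from a replicate 1 peak. Every other member lay 768 to 35257 bp from one, nearer than the median of all genes. In replicate 2 these others lay 9215 to 98121 bp away, on both sides of that median. The unmarked pair HIST1H2AA and HIST1H2BA had no H3K27me3 peak within 1 kb, the nearest lying 7125 to 9430 bp away.

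With gaps of more than 200 kb taken as limits, the members fell into 4 subclusters. Subcluster 1 held only HIST1H2AA and HIST1H2BA. Subcluster 2 held 33 members (start sites from 26018015 to 26285866), of which 30 had both active marks with the placed members included, and a summed mean FPKM of 15.6. Subcluster 3, with 5 members within 14312 bp (27100574 to 27114885), all marked, had the largest sum, 22.3, or 2.59 without HIST1H2BK. Subcluster 4 held 16 members (27775707 to 27861203), all marked, with a sum of 4.58. Summed FPKM was therefore concentrated in the smallest marked subcluster through a single gene, and the subcluster of 16 marked genes had the lowest sum of those marked.

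Peaks filled much of subclusters 2, 3 and 4, taken with 5 kb on either side. H3K4me3 peaks of replicate 1 covered 24.0%, 39.6% and 28.0% of them and those of replicate 2 covered 9.55%, 16.2% and 16.2%, against 1.47% and 1.49% of chromosome 6. H3K27ac peaks covered 34.3%, 52.5% and 48.2% in replicate 1 and 17.6%, 33.5% and 19.7% in replicate 2, against 3.73% and 1.28%. The whole span between the outermost members is a nearer comparison. There H3K4me3 covered 10.3% and 5.26% in replicates 1 and 2, and H3K27ac 12.5% and 5.4%. H3K27me3 covered 1.98% of subcluster 4 in replicate 1 and 0 in the other subclusters and replicate, although over the whole span between the outermost members it covered 9.16% and 4.34%, against 4.22% and 0.998% of the chromosome. H3K27me3 thus lay between the subclusters and, apart from subcluster 4 in replicate 1, not in them.

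**Figure D3:**
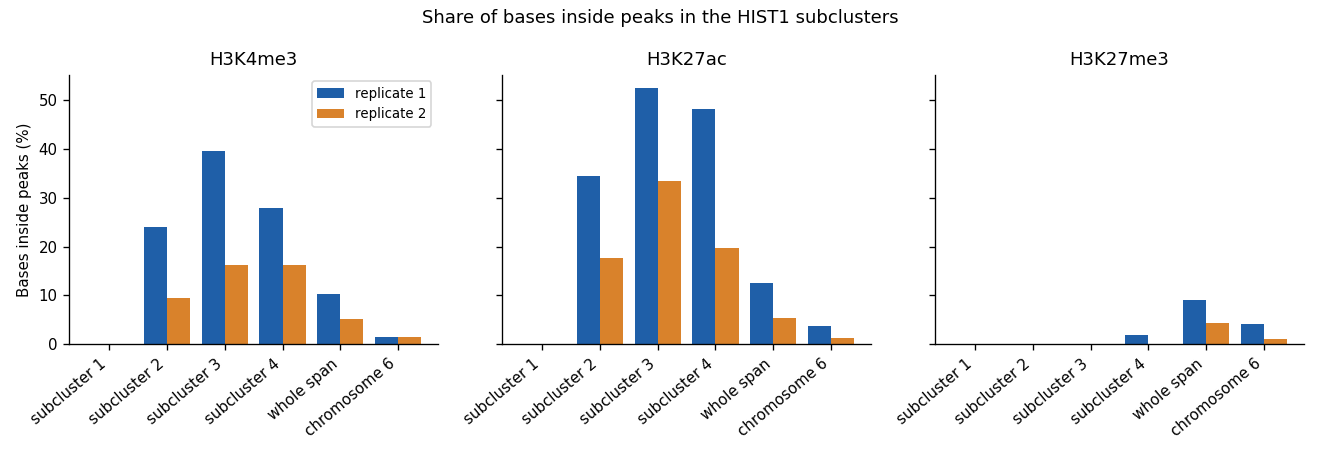
Share of bases inside peaks (bars from 0, %) of each mark and replicate in the 4 HIST1 subclusters with 5 kb on either side, the whole span and chromosome 6. H3K27ac reaches 52.5% and 33.5% in subcluster 3, and H3K27me3 is at 0 in every subcluster except 1.98% in subcluster 4 of replicate 1.

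Few of the members so marked reached an appreciable FPKM. The part of RNA selection in these levels was not tested, so a low FPKM is not read here as a lack of transcript. Of the 45 members with both active marks in both replicates, joined by identifier, 5 reached an FPKM of 1 in both libraries. All 5 members that reached this level had both marks. Among all 10502 protein-coding genes with these marks 91.9% did. The median FPKM was 0.223 for the 45 members and 11.5 for all genes so marked, and the members' median lay at percentile 3.46 of the latter. Of these 45 members, 36 were under 1 in both libraries, and they made up 5.11% of the 704 genes with both marks and so low an FPKM. The members at 0 in both libraries despite both marks were 4 of the 45, against 0.714% of all genes with the marks. They were HIST1H2BB, HIST1H3F, HIST1H3I and HIST1H3J, with HIST1H4B and HIST1H4F in addition among the placed members. Most members have 1 unspliced transcript each, so 135 other single-exon genes with both marks were also described. Their median FPKM was 7.63, with 84.4% at 1 or more in both libraries. They were not matched to the members in length, and 10 of the 56 members have a transcript of several exons. The part of transcript structure in the members' levels was not tested.

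**Figure D4:**
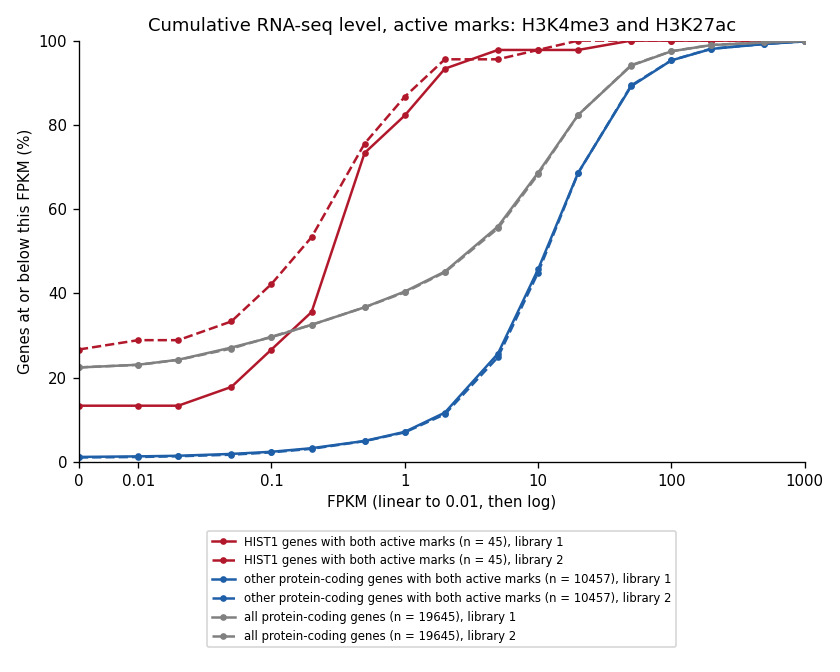
Cumulative share of genes (y axis, %) at or below an FPKM (x axis, linear to 0.01 and logarithmic above) for the 45 HIST1 genes with both active marks (red), the other 10457 protein-coding genes with both marks (blue) and all protein-coding genes (grey), library 1 solid and library 2 dashed. At an FPKM of 1 the red curves stand at 82.2% and 86.7% and the blue curves at 7.12% and 6.99%.

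The head-to-head pairs gave the closest comparison of promoters. In 10 pairs an H2A and an H2B gene faced away from each other across no more than 250 bp, and in 9 of them both genes had H3K4me3 and H3K27ac in both replicates, the exception being HIST1H2AA and HIST1H2BA. HIST1H2BK had 20.1 and 19.3 FPKM and its partner HIST1H2AH, 250 bp away, 0.273 and 0.401. No other pair differed as much in absolute level. Partners were nearer to each other in HIST1H2BC (1.32 and 0.910) and HIST1H2AC (1.65 and 1.77), and in HIST1H2BG (0.329 and 0.671) and HIST1H2AE (0.300 and 0.494). Among low pairs the ratio could also be large or undefined, as with HIST1H2BM (0.270 and 0.0713) and HIST1H2AJ (0.0665 and 0.00187), or HIST1H2BN (0.173 and 0.254) and HIST1H2AK (0 and 0.134). In HIST1H2BL (0.325 and 0) and HIST1H2AI (0.0526 and 0.0443) the order of the partners differed between libraries. HIST1H2BJ, at 1.21 and 0.922, was above HIST1H2AG, at 0.352 and 0.639, in both libraries. In aligned bases the order was reversed, at 3801 and 3316 for HIST1H2BJ against 4496 and 7942 for HIST1H2AG. FPKM is scaled to transcript length, and the longest annotated transcript was 950 bp in HIST1H2BJ and 2250 bp in HIST1H2AG. Lengths also differed between HIST1H2BC (659 bp) and HIST1H2AC (1668 bp), and between HIST1H2BG (1534 bp) and HIST1H2AE (509 bp). Peaks at this spacing cannot be assigned to 1 gene of a pair, so the marks of partners are not separate measurements.

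**Figure D5:**
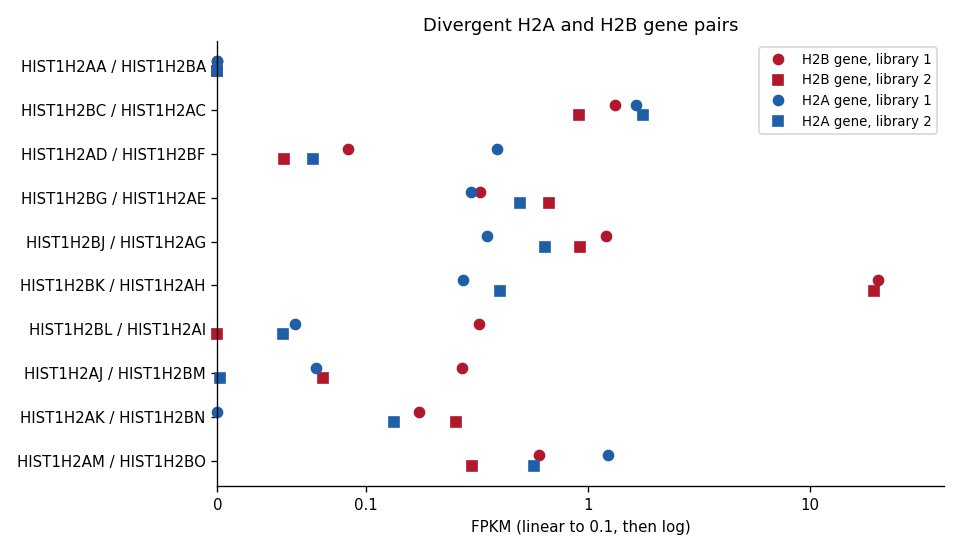
FPKM (x axis, linear to 0.1 and logarithmic above) of the H2B gene (red) and H2A gene (blue) in each of 10 divergent pairs, circles for library 1 and squares for library 2. HIST1H2BK and HIST1H2AH have the largest absolute difference, at 20.1 and 19.3 against 0.273 and 0.401, and both genes of the topmost pair are at 0.

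The factors that act on histone genes were all expressed. Each of 19 listed genes reached an FPKM of 1 in both libraries, with a median of 13.9, and 17 had both active marks. Among all protein-coding genes the shares were 58.8% and 53.5%. SLBP, which binds the stem-loop, was highest, at 82.8 and 82.6 FPKM. UPF1, a helicase needed for decay of histone mRNA, had 41.3 and 40.4, and E2F1, a transcription factor of S phase entry, 36.3 and 35.5. NPAT, the coactivator of the histone locus body, was lowest, at 2.05 and 2.38. All 13 S phase genes examined were above 1 as well, with a median of 68.2 and PCNA, the sliding clamp of replication, at 277 and 287. Every listed factor and S phase gene thus lay above the members' median in both libraries.

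Histone genes outside the cluster fell into contrasting groups. Of 12 histone variant genes, most of which are replication-independent and make polyadenylated mRNA (H2AFX also makes a stem-loop mRNA), 11 had an FPKM of at least 1, with H2AFZ at 294 and 310, H3F3A at 249 and 249, and H2AFX at 103 and 95.8. The 13 genes of the smaller HIST2, HIST3 and HIST4 groups had a median of 0.253, against 0.203 for the members, and 10 of them had both active marks while none reached 1 in both libraries. Their highest were HIST2H2AC at 1.85 and 0.553, HIST4H4 at 1.22 and 0.510, and HIST3H2A at 0.913 and 0.719. In contrast, 19 other protein-coding genes lying between the members had a median of 3.71. Of these, 8 had both active marks, and all 8 had an FPKM of at least 1. HMGN4, a nucleosome-binding protein gene, was highest at 31.7 and 30.0. For comparison with these counts, 58.8% of all protein-coding genes reached an FPKM of 1 in both libraries and 53.5% had both marks. Among genes with both marks 91.9% reached that level, so 8 of 8 is near the general share.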

How the data were processed

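RNA-seq (2 libraries) and ChIP-seq peaks (3 marks, 2 replicates each) of HK2 cells were used. The authors mapped RNA reads with HISAT2 and deposited FPKM, TPM and coverage per transcript from StringTie 1.3.3 on GENCODE 27. FPKM is not a count. Transcript values were summed per gene. The submitters' processing notes name cutadapt, Bowtie2 and MACS2 for ChIP-seq, and the deposited peaks in hg19 have no score, so the depth behind each is unknown. The replicate of each mark without a number was taken as replicate 1. The paper names hg19 for mapping, but the RNA-seq coordinates are GRCh38, so genes were joined by Ensembl identifier to start sites of GENCODE 44 mapped to GRCh37. Promoter sequences are from RefSeq. Aligned bases are coverage multiplied by exon length. Sharing was computed over 50-base stretches. Values were computed with Python 3.11.15, numpy 2.4.6 and pandas 2.3.3 and drawn with matplotlib 3.10.9. Overlap counting was tested on simulated data. With 1 condition no test was run, and comparisons are descriptions. The members and lists were chosen with earlier results of these data known. By rule, genes named were the 3 highest and the lowest of each histone class and of the histone mRNA factors, the 3 highest of the variants and of the HIST2, HIST3 and HIST4 genes, and the testis genes. The marked members under an FPKM of 1, which the rule also takes in, are given by counts and in a plot. Other names, among them single marker, S phase and neighbouring genes, were chosen after their values were seen. Alternatives covered units, thresholds, windows, peak width and replicates.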

Additional observations from a re-analysis of the deposited data

How the results depend on the processing

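Of 61 alternatives to 8 results, 48 stayed within the tolerance used, 1.5 times for a count and 1 SD between libraries for a value. These include all 26 for the counts of members with H3K4me3, H3K27ac or both, which were 45 except with peaks of at least 500 bp, where they were 39 for H3K4me3 and 43 for H3K27ac, and with the placed members. For values, the SD came from the same 2 libraries. Leaving out either library could therefore hardly pass the tolerance, and those alternatives do not show that a value is stable. The count with an FPKM of at least 1, 5 in the report, was 10 with TPM, 27 at a threshold of 0.1 and 1 at a threshold of 5, and 6 to 8 with either library left out. The median FPKM of 0.203 became 0.562 as TPM and 0.376 once genes with a mean FPKM under 0.1 were left out, and was 0.108 in library 2 alone and 0.269 in library 1 alone. The difference in median log2(FPKM + 1), -1.85, was -2.71 with TPM, -1.28 with the highest transcript of a gene, -2.77 with those genes left out and -3.50 with a pseudocount of 0.1. It turned to 0.23 when all genes named HIST1H were set against genes of every type, whose median FPKM is 0. The median of the HIST1H genes was then 0.171, so it was the comparator that changed the sign. The count with H3K27me3 in both replicates, 0, was 1 with peaks of either replicate, and 0 to 1 with either replicate left out. Counting the 6 members placed by promoter sequence, an alternative added after the data were seen, gave 51 with both active marks. No paired analysis was possible because no test was run and no groups were contrasted. Low FPKM values rest on few aligned bases, and peaks carry no height, so levels of a mark could not be compared.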
